A study of Saccharomyces cerevisiae with 8 samples.

Results

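The comparison described here sets pcf11-13 cells grown in caffeine against wild-type cells grown in caffeine, which takes 3 of the 8 libraries of the study. It holds the 1 caffeine library of pcf11-13, from experiment 1 in the labels, and the 2 caffeine libraries of wild type, from experiments 1 and 2. Both strains were W303 budding yeast, Saccharomyces cerevisiae, with the same marker alleles at ADE2, HIS3, LEU2, TRP1 and URA3 in the labels. Their chromosomal copy was deleted (pcf11-delta::TRP1), and a LEU2 plasmid (pRS325) supplied the PCF11 allele. Wild type was MAT alpha with V5-PCF11-MYC on the plasmid, and the mutant was MAT a with an untagged pcf11-13 allele. The allele, the mating type and the tag therefore differ together and cannot be told apart. Cultures grew in YPAD at 30 °C, and caffeine was added to 20 mM for 2 h. Poly(A) 3′ ends of total RNA were read by Helicos direct RNA sequencing, which reads RNA molecules with no cDNA step. The labels do not say that the libraries of a group came from separate cultures, so p-values cover only sample-to-sample spread, part or all of which may be technical.

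Pcf11 belongs to cleavage factor IA, which cuts nascent RNA at poly(A) sites together with the cleavage and polyadenylation factor (CPF). Pcf11 is essential, also takes part in releasing RNA polymerase II from the gene, and binds the C-terminal domain of the polymerase. Changes in cleavage can move the 3′ end along a gene, so a transcript can end inside the coding sequence, soon after the stop codon or far downstream. Caffeine inhibits the TORC1 kinase of yeast and stresses the cell wall.

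The pcf11-13 library held a total count of 2088078, and the wild-type libraries held 4413677 and 4410374. In the wild-type library of experiment 1, URA3 and 2-micron plasmid features took 11.4% of the counts, against 0.304% in that of experiment 2 and 0.252% in pcf11-13. URA3 itself stood at 40850.3 CPM in the first, 88.3 in the second and 69.3 in pcf11-13, where CPM is the count scaled by library size and TMM factor. The plasmid-borne PCF11 (YDR228C, chromosome IV, 921926 to 923806, minus strand) stood at 134 and 111 CPM in wild type and 222 in pcf11-13, a log2 difference of 0.86 ± 0.37 (SE) that did not pass the test (edgeR adjusted p = 0.26). Its reads do not say which allele a culture held. Truncated reads, taken here as those that end before the 3′ UTR, made up 26.3% and 25.2% in wild type and 45.2% in pcf11-13 of the PCF11 counts (95% Wilson interval for pcf11-13, 41% to 49.7%), and the difference did not pass (limma adjusted p = 0.93). Without caffeine the shares were 65.3% and 32.1% in wild type and 50.8% in pcf11-13.

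Of the mating genes, 5 of 7 MATa-specific genes were called higher and 1 of 5 MATalpha-specific genes was called lower in pcf11-13 (adjusted p under 0.05 in edgeR), beside 0.889% of all tested genes called higher and 0.427% lower. MFA2 (YNL145W, chromosome XIV, 352414 to 352530, plus strand), which encodes the a-factor pheromone, stood at 11.4 and 25.2 CPM in wild type and 1312 in pcf11-13. Its log2 difference was 6.16 ± 0.48 (SE; here and below, 1 pcf11-13 library against 2 of wild type), with an edgeR adjusted p of 0.0022. The other a-factor gene, MFA1 (YDR461W, chromosome IV, plus strand), stood at 59.3 and 79.5 in wild type and 774 in pcf11-13. STE2 (YFL026W, chromosome VI, 82580 to 83875, plus strand), the alpha-factor receptor, stood at 63.1 and 68.3 in wild type and 667 in pcf11-13. For AGA2 (YGL032C, chromosome VII, 436570 to 436833, minus strand), the adhesion subunit of a-agglutinin, the values were 3.53 and 4.05 in wild type and 68 in pcf11-13. BAR1, the protease that degrades alpha-factor, showed 37.6 and 56.5 in wild type and 156 in pcf11-13. In each of these 5 genes the pcf11-13 library lay above both wild-type libraries, with log2 differences from 1.72 for BAR1 to 6.16 for MFA2 and edgeR adjusted p-values of 0.0022 to 0.045.

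ASG7, a regulator of the pheromone-coupled G protein, and STE6, the a-factor exporter, did not pass. ASG7 stood at 6.31 and 9.91 in wild type and 31.6 in pcf11-13 (1.95 ± 0.42, edgeR adjusted p = 0.073), and STE6 at 47.7 and 50.7 in wild type and 79.6 in pcf11-13 (0.69 ± 0.27, edgeR adjusted p = 0.22). Of the 5 MATalpha-specific genes, 1 passed. MF(ALPHA)1 (YPL187W, chromosome XVI, 193648 to 194145, plus strand), the main alpha-factor gene, stood at 274 and 129 CPM in wild type and 14.7 in pcf11-13, with a log2 difference of -3.78 ± 0.62 and an edgeR adjusted p of 0.043. STE3, the a-factor receptor, stood at 169 and 116 in wild type and 32.5 in pcf11-13 (edgeR adjusted p = 0.092), and AFB1, the a-factor barrier protein, at 375 and 209 in wild type and 109 in pcf11-13 (edgeR adjusted p = 0.14). SAG1, alpha-agglutinin, lay above both wild-type libraries at 357 against 177 and 132, and did not pass (edgeR adjusted p = 0.18). MF(ALPHA)2, the minor alpha-factor gene, lay between them at 26.7, with 35.1 and 24.8 in wild type. Without caffeine the same gene stood at 1016 and 2241 in wild type and 28.1 in pcf11-13. HMRA1 (YCR097W, chromosome III, 293835 to 294321, plus strand), the silent copy of the MATa1 gene, stood at 53.8 and 59.5 in wild type and 199 in pcf11-13, with a log2 difference of 1.81 ± 0.26 (edgeR adjusted p = 0.026). Its reads and those of a MATa1 copy at the mating-type locus cannot be told apart in these files.

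**Figure D1:**
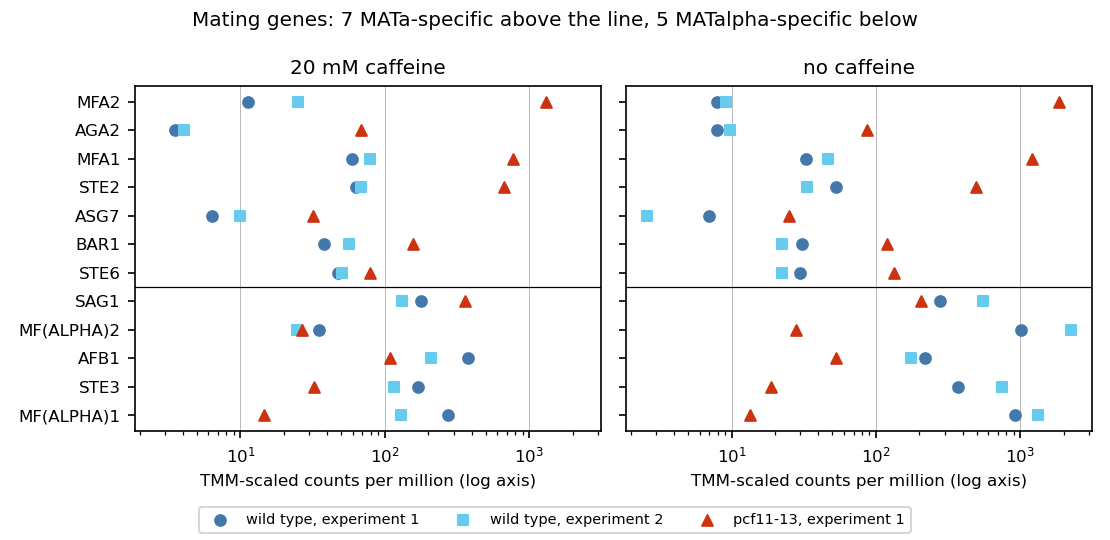
TMM-scaled CPM (log axis) of the mating genes in the 3 libraries of each medium, 1 point per library, with MATa-specific genes above the line. The pcf11-13 library lies above both wild-type libraries for 7 of 7 MATa-specific genes in caffeine, and MF(ALPHA)2 lies between them in caffeine and below both without it.

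Haploid alpha cells keep MATa-specific genes off with the repressor alpha2, which binds a pair of half-sites in their promoters together with Mcm1. The half-site CATGTAA was searched on both strands from 250 bases before to 50 bases after each start codon, in the reference sequence. It was found for 6 of the 7 MATa-specific genes, 1 of the 5 MATalpha-specific genes and 3.68% of 5810 promoters. The stretches that hold it are shown 5′ to 3′ on the coding strand (RefSeq, assembly R64) for the 6 MATa-specific genes with a match, of which STE6 and ASG7 did not pass the test, with the half-site in capitals (CATGTAA, or TTACATG where it lies on the other strand). No match was found for AGA2, which says only that these letters are not in its window.
MFA1, chrIV:1384943-1384972, plus strand: gtgtaattacccaaaaaggaaatTTACATG
MFA2, chrXIV:352164-352193, plus strand: atgtatttacctattcgggaaatTTACATG
STE2, chrVI:82351-82380, plus strand: CATGTAAatttcctaattgggtaagtacat
STE6, chrXI:46478-46507, minus strand: CATGTAAttacctaatagggaaatttacac
BAR1, chrIX:322092-322121, plus strand: aaaaggaaaTTACATGgcgagtgtcacata
ASG7, chrX:101905-101934, minus strand: acgtaattaccgcatcgggaaatTTACATG

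Across all genes, 77 of 5849 (1.32%) differed between pcf11-13 and wild type in caffeine, 52 higher (0.889%) and 25 lower (0.427%), at an adjusted p under 0.05 in edgeR's quasi-likelihood test. Before adjustment 1079 genes had a p under 0.05. Outside the mating genes the higher group included single genes such as ADY2 of acetate use, POT1 of fatty acid oxidation, HEM4 of heme synthesis and MUD1 of splicing. Of 24 peroxisomal fatty acid oxidation genes 1 was called higher. Of these 24 genes 16 had a positive and 8 a negative log2 difference, with a median of 0.18. All log2 differences are pcf11-13 over wild type, and the median over all tested genes was -0.01. With 1 mutant library the spread came from the wild-type pairs of both media, and the lone library was assumed to vary like them. An exact permutation of 1 library against 2 cannot give a p under 0.333.

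Among the called genes with a mean of 50 counts or more and pcf11-13 beyond both wild-type libraries, ADY2 (YCR010C, chromosome III, 132273 to 133124, minus strand), an acetate transporter, showed the largest log2 difference outside the mating genes. It stood at 19.2 and 20.5 CPM in wild type and 225 in pcf11-13, a log2 difference of 3.50 ± 0.25 (edgeR adjusted p = 0.0022). The pcf11-13 library lay far above both wild-type libraries, which were close together. Without caffeine ADY2 stood at 23.8 and 22.2 in wild type and 43.5 in pcf11-13, so the difference there was smaller (0.92 on the log2 scale). POT1 (YIL160C, chromosome IX, 40191 to 41444, minus strand), the thiolase of peroxisomal fatty acid oxidation, stood at 10.6 and 9.01 in wild type and 76.5 in pcf11-13, and in this gene the difference was also large without caffeine (3.98). REG2, a regulatory subunit of the Glc7 phosphatase that acts in glucose-repressed processes, stood at 29.3 and 23.4 in wild type and 184 in pcf11-13. RGI1, a protein of energy metabolism in respiratory growth, stood at 196 and 236 in wild type and 1253 in pcf11-13 and at 178 and 324 in wild type and 1295 in pcf11-13 without caffeine. The log2 differences of POT1, REG2 and RGI1 were 2.96 ± 0.34, 2.80 ± 0.39 and 2.54 ± 0.43, with edgeR adjusted p-values of 0.01 to 0.043.

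HEM4 (YOR278W, chromosome XV, 842817 to 843644, plus strand), the uroporphyrinogen III synthase of heme synthesis, stood at 47.5 and 42.6 CPM in wild type and 351 in pcf11-13 (2.96 ± 0.35, edgeR adjusted p = 0.012). CBP1 (YJL209W, chromosome X, 38005 to 39969, plus strand), which stabilises the mitochondrial cytochrome b mRNA, stood at 64.6 and 58.8 in wild type and 479 in pcf11-13 (2.96 ± 0.27, edgeR adjusted p = 0.0045). MUD1 (YBR119W, chromosome II, 479338 to 480323, plus strand), the U1 snRNP A protein of the spliceosome, stood at 85.3 and 72.8 in wild type and 604 in pcf11-13 (2.93 ± 0.28, edgeR adjusted p = 0.0046). In all 3 genes the wild-type libraries lay close together and the pcf11-13 library lay several-fold above them. Without caffeine CBP1 stood at 74.4 and 98.6 in wild type and 104 in pcf11-13 and MUD1 at 244 and 219 in wild type and 387 in pcf11-13. CIN2 (YPL241C, chromosome XVI, 95372 to 96258, minus strand), the activating protein of the tubulin-folding GTPase Cin4, stood at 17.9 and 20 in wild type and 116 in pcf11-13 (2.61 ± 0.26, edgeR adjusted p = 0.0056). CIN4, that GTPase, was among the lower genes, at 37.9 and 34.2 in wild type and 7.11 in pcf11-13 (-2.33 ± 0.39, edgeR adjusted p = 0.043). Truncated reads made up 21% and 43.8% of the CIN2 counts in wild type and 68.6% in pcf11-13 (limma adjusted p = 0.53). CIN2 lies 237 nt downstream of HSP82 on the same strand, and the part of HSP82 reads in its counts was not tested.

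The subtelomeric genes PAU19 and PAU22 of the seripauperin family completed the 10 higher genes. PAU19 stood at 11.6 and 22.5 in wild type and 94.2 in pcf11-13, and PAU22 at 9.59 and 19.8 in wild type and 85.8 in pcf11-13, with log2 differences of 2.45 ± 0.38 and 2.53 ± 0.40 (edgeR adjusted p 0.033 to 0.035). PAU21, the isomaltases IMA3 and IMA4 and the maltose permeases MPH2 and MPH3 also passed. These families have near-identical copies, how reads with several places were counted is not stated in the labels or headers, and each of these values is therefore uncertain. Of 226 tested genes within 20 kb of a chromosome end, 8 were called higher and 0 lower, beside 0.889% and 0.427% of all tested genes, with a median log2 difference of 0.17 (0.24 and 0.14 against wild type of experiments 1 and 2).

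**Figure D2:**
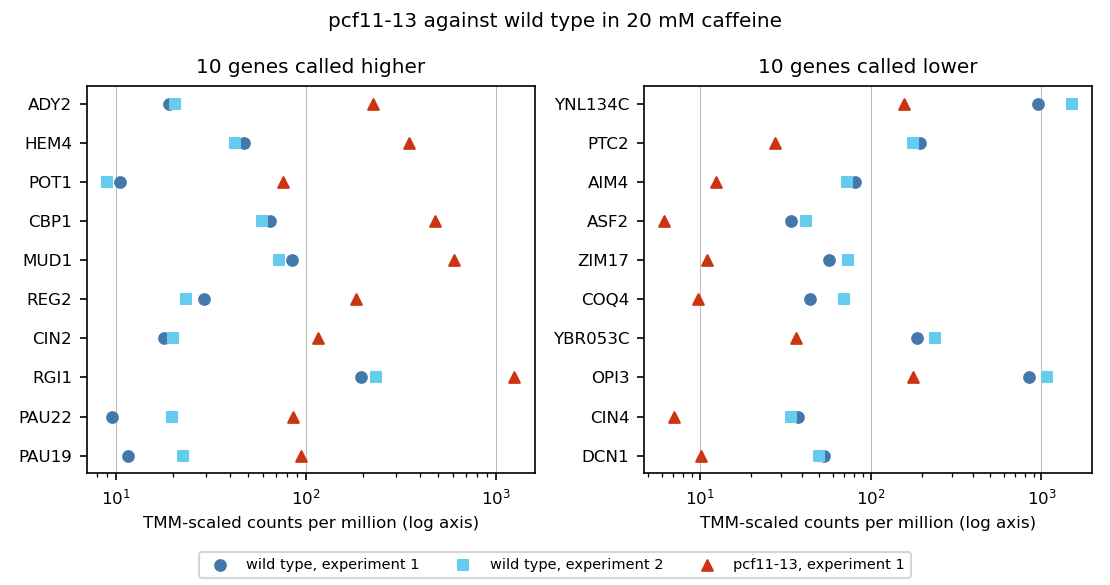
TMM-scaled CPM (log axis) of the 10 higher and 10 lower called genes with the largest log2 differences outside the mating genes (mean of 50 counts or more), 1 point per library in caffeine. The pcf11-13 point lies beyond both wild-type points in every row, which was a condition for naming a gene.

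The lower genes came from several pathways. YNL134C (YNL134C, chromosome XIV, 372451 to 373581, minus strand) stood at 958 and 1502 CPM in wild type and 156 in pcf11-13 (-2.97 ± 0.48, edgeR adjusted p = 0.041). PTC2 (YER089C, chromosome V, 335946 to 337340, minus strand), a type 2C protein phosphatase that acts on the Hog1 kinase pathway, stood at 195 and 178 in wild type and 27.6 in pcf11-13 (-2.76 ± 0.31, edgeR adjusted p = 0.01). OPI3 (YJR073C, chromosome X, 572315 to 572935, minus strand), a methyltransferase of phosphatidylcholine synthesis, stood at 851 and 1074 in wild type and 177 in pcf11-13 (-2.44 ± 0.43, edgeR adjusted p = 0.044). Without caffeine YNL134C stood at 139.9 and 190.1 in wild type and 88.9 in pcf11-13, and OPI3 at 151 and 98 in wild type and 98.7 in pcf11-13. Both wild-type libraries were thus several-fold higher in caffeine than without it for these genes, and the pcf11-13 library was closer to its own untreated level.

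AIM4 stood at 81 and 72.5 in wild type and 12.4 in pcf11-13, ASF2, an anti-silencing protein, at 34.1 and 41.7 in wild type and 6.22 in pcf11-13, and ZIM17, a partner of the mitochondrial Hsp70, at 57.1 and 74.1 in wild type and 11.1 in pcf11-13. COQ4 of ubiquinone synthesis stood at 44.2 and 69.8 in wild type and 9.78 in pcf11-13, and DCN1, the neddylation factor of Cdc53, at 53.3 and 50 in wild type and 10.2 in pcf11-13. For YBR053C the values were 187 and 238 in wild type and 36.9 in pcf11-13. The log2 differences of these 6 genes ran from -2.62 to -2.33, with edgeR adjusted p-values of 0.025 to 0.043. The remaining lower genes were SWF1, GCG1, YIP4, PRM8, HUA2, IES6, YOR376W-A, FPY1, CAP2, CAB4, BET2, VMA13, STR2 and SYC1.

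Other called higher genes belonged to several of the gene lists, beside 0.889% of all tested genes called higher. Of 13 DNA damage and nucleotide reductase genes 2 were called, and of 65 induced stress response genes 1. In the lists of 31 pheromone response, 49 Gcn4 amino acid synthesis, 37 respiratory chain and 25 sulfur amino acid genes, 1 each was called. Of the respiratory chain genes 9 had a positive and 28 a negative log2 difference (median -0.23). HUG1, an inhibitor of ribonucleotide reductase, and RNR3, a large subunit of that enzyme, stood at 98.2 and 93.7 in wild type and 248 in pcf11-13 and at 19.4 and 19.6 in wild type and 57.8 in pcf11-13. ALD3, an aldehyde dehydrogenase of the stress response, stood at 34.1 and 43.3 in wild type and 126 in pcf11-13, and KAR4, a transcription factor of karyogamy, at 25 and 22.8 in wild type and 65.8 in pcf11-13. LYS4, the homoaconitase of lysine synthesis, stood at 199 and 278 in wild type and 854 in pcf11-13, and SDH1, the flavoprotein of succinate dehydrogenase, at 27.3 and 26.6 in wild type and 76.9 in pcf11-13. MET32, a zinc-finger factor of sulfur metabolism, stood at 27.8 and 25.7 in wild type and 84.5 in pcf11-13. In each of these 7 genes the pcf11-13 library lay above both wild-type libraries, by log2 1.37 to 1.84 (edgeR adjusted p 0.033 to 0.046). With the experiment as a block, 16 of the 77 called genes no longer passed. Among the genes described here these were HUG1 (edgeR adjusted p = 0.073), RNR3 (0.051), KAR4 (0.053), SDH1 (0.054) and MET32 (0.056), and among the lower genes CAP2 (0.051) and PRM8 (0.063). MPP6, a cofactor of the nuclear RNA exosome, stood at 88.1 and 61.7 in wild type and 268 in pcf11-13 (1.84 ± 0.28, edgeR adjusted p = 0.033).

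The remaining higher genes were EGO4, MNN4, LSO1, ATM1, CDC45, PUS4, GCD14, CNA1, TOS3, AGX1, PLB2, DPA10, YGR035C, YDR042C, YER084W, YFL012W, YDL218W, YBL008W-A, YGR204C-A, YML003W, YNL146C-A and YFR057W. Of these, CNA1, TOS3, AGX1, PLB2, YGR035C, YDR042C, YFL012W, YDL218W and YML003W no longer passed with the block (edgeR adjusted p 0.053 to 0.072). Of the 77 called genes, 56 passed without each wild-type library in turn and with the experiment as a block, and 77 kept their direction. Without the wild-type caffeine library of experiment 1, 293 genes passed, and without that of experiment 2, 201 passed. With at least 50 counts required in every library compared, 56 of the 77 genes could be tested and 21 genes passed. The others of the 77, MFA2 and AGA2 among them, were left out by that filter. In the caffeine libraries alone 43 passed, and 77 passed without URA3 and the 2-micron features.

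Among the factors that cut and terminate transcripts, in lists of 5, 9, 6 and 9 genes, 2 passed. Of these, 1 was higher and 1 lower, beside 0.889% and 0.427% of all tested genes. NRD1 (YNL251C, chromosome XIV, 172588 to 174315, minus strand), the RNA-binding subunit of the Nrd1-Nab3-Sen1 complex that terminates noncoding transcripts and its own mRNA, stood at 40.9 and 32.4 CPM in wild type and 142 in pcf11-13. The log2 difference was 1.95 ± 0.33 (edgeR adjusted p = 0.043). Without caffeine it stood at 306 and 193 in wild type and 119.7 in pcf11-13, the opposite order. NRD1 was thus low in both wild-type caffeine libraries, and its level in pcf11-13 was similar in both media. Its truncated share was 12.9% and 18.8% in wild type and 3.75% in pcf11-13 in caffeine (95% Wilson interval for pcf11-13, 2.16% to 6.46%), which did not pass (limma adjusted p = 0.96). Without caffeine it was 36.5% and 15.1% in wild type and 24.6% in pcf11-13.

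SYC1 (YOR179C, chromosome XV, 671845 to 672411, minus strand), a subunit of the APT complex of CPF that resembles the end of the endonuclease Ysh1, stood at 59.1 and 70.1 CPM in wild type and 18.7 in pcf11-13 (-1.79 ± 0.31, edgeR adjusted p = 0.043). SSU72, the polymerase phosphatase of APT, stood at 51.8 and 46 in wild type and 22.7 in pcf11-13 and did not pass (-1.11 ± 0.31, edgeR adjusted p = 0.13). In the APT list of 6 genes, 1 was called lower, beside 0.427% of all tested genes. Of 9 core CPF genes 0 passed, with log2 differences from -0.91 for MPE1 to 0.64 for the Cft2 gene. In the 5 genes of cleavage factors IA and IB, 0 passed, from -0.67 for HRP1 to 0.86 for PCF11. Of 9 genes of Nrd1-Nab3-Sen1 and torpedo termination 1 was called higher, beside 0.889% of all tested genes. RAT1, the torpedo exonuclease, stood at 104 and 102 in wild type and 177 in pcf11-13 (edgeR adjusted p = 0.21).

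Larger gene groups gave few calls. Of 101 ribosome biogenesis genes 0 were called, 87 had a positive log2 difference, and the median was 0.45, beside a median of -0.01 and 2879 positive of 5849 over all tested genes. The median was 0.23 against wild type of experiment 1 and 0.67 against that of experiment 2. Without caffeine it was -0.75. CIC1 of large-subunit assembly stood at 120.2 and 69.8 in wild type and 228 in pcf11-13 (1.26 ± 0.38), and KRR1 of the small-subunit processome at 150.5 and 102 in wild type and 263 in pcf11-13 (1.06 ± 0.36). The subunits of RNA polymerases I and III had a median of 0.40, with 16 of 19 positive and 0 called, and it was 0.18 and 0.62 against wild type of experiments 1 and 2 and -0.63 without caffeine. For 138 cytosolic ribosomal protein genes the median was 0.01, but -0.23 against wild type of experiment 1 and 0.31 against that of experiment 2, so its sign depended on the control library. Without caffeine it was -0.97.

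Hsf1 target genes, which encode chaperones, had a median of -0.77, with 2 of 25 positive and 0 called. It was -0.22 and -0.98 against wild type of experiments 1 and 2, respectively, and -0.24 without caffeine. HSP82 stood at 1135 and 3205 in wild type and 938 in pcf11-13, and the Hsp90 activator AHA1 at 501 and 558 in wild type and 183 in pcf11-13 (-1.54 ± 0.34, edgeR adjusted p = 0.073). For HSP82 the wild-type libraries differed more from each other than pcf11-13 did from the lower of them. Purine synthesis and one-carbon genes had a median of -0.79 (9 of 24 positive, 0 called), with -0.43 and -0.78 against wild type of experiments 1 and 2. Without caffeine it was 0.20. ADE17, an enzyme late in purine synthesis, stood at 198 and 320.3 in wild type and 77.4 in pcf11-13 (-1.74 ± 0.45, edgeR adjusted p = 0.11), and at 33.7 and 15.7 in wild type and 69 in pcf11-13 without caffeine. Of 26 ergosterol synthesis genes 2 were positive and 0 called, with medians of -0.34 and -0.39 against the 2 controls. Without caffeine their median was -0.47.

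Nitrogen catabolite repression genes, which cells use on poor nitrogen sources and when TORC1 is inhibited, had a median of -0.38 (9 of 28 positive, 0 called). It was -0.18 and -0.60 against wild type of experiments 1 and 2 and 0.44 without caffeine. DAL5, the allantoate permease, stood at 1212 and 1308 in wild type and 538 in pcf11-13 (-1.23 ± 0.36, edgeR adjusted p = 0.14), and VBA1, a vacuolar amino acid permease, at 1668 and 1829 in wild type and 477 in pcf11-13 (-1.88 ± 0.43, edgeR adjusted p = 0.08). Hexose transporters had a median of 0.72 (16 of 19 positive, 0 called), and it was 0.71 without caffeine. HXT7 stood at 311 and 208 in wild type and 1196 in pcf11-13 and HXT2 at 629.6 and 178 in wild type and 1495 in pcf11-13, with edgeR adjusted p-values of 0.23 and 0.37, and the hexose transporters include near-identical copies. Of 21 glyoxylate cycle and gluconeogenesis genes 2 were called higher, ADY2 and REG2, beside 0.889% of all tested genes. Their median was 0.53, and it was 0.76 and 0.29 against wild type of experiments 1 and 2 and 1.02 without caffeine. For 65 induced stress response genes the median was 0.14, with 0.44 and -0.19 against the 2 controls, 1 called higher, and 1.14 without caffeine. Where such groups are described in bulk cultures, fewer cells of a kind and less RNA per cell cannot be told apart.

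**Figure D3:**
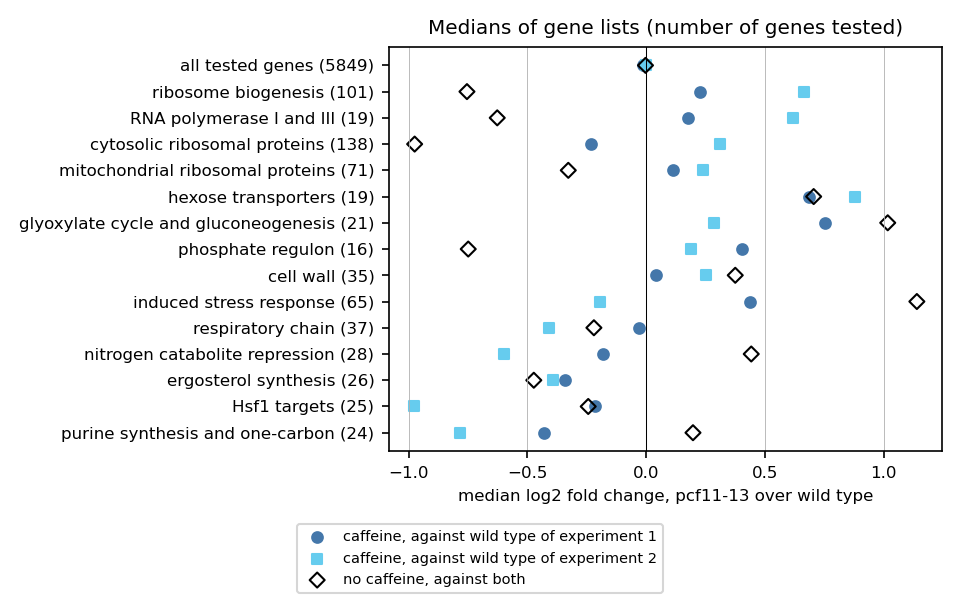
Median log2 difference of pcf11-13 over wild type for 14 gene lists and all tested genes, with points for caffeine against each wild-type library and open diamonds for no caffeine. Ribosome biogenesis lies at 0.23 and 0.67 in caffeine and at -0.75 without it, and Hsf1 targets and the induced stress response differ between the 2 controls.

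The difference in caffeine was compared with the difference between the same strains without caffeine, where 71 genes passed (1.21%), 67 higher (1.15%) and 4 lower (0.0684%). Of the 77 genes called in caffeine, 15 were called in both media, with the same sign. Of the 52 higher genes, 47 had a positive log2 difference without caffeine, and of the 25 lower genes 20 had a negative one. The test of the difference between the media (the interaction in edgeR) called 0 of 5849 genes, with a smallest adjusted p of 0.14 and 826 genes at an unadjusted p under 0.05. DESeq2 called 42, and edgeR without the wild-type caffeine library of experiment 1 or 2 called 177 or 71. Of the 77 genes, 44 had an unadjusted interaction p under 0.05, and CBP1, ADY2, SWF1 and NRD1 were among them. The 77 genes were chosen on the difference in caffeine, which is part of the interaction. An excess of small interaction p-values among them is therefore built in and says nothing about the media. SWF1, a palmitoyltransferase, stood at 242 and 255 in wild type and 67.6 in pcf11-13 in caffeine and at 51.6 and 34 in wild type and 81.8 in pcf11-13 without it.

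The authors' average 3′ UTR length, taken here as the mean distance of the ends from the stop codon, was greater in pcf11-13 for most genes. Library medians over 5165 genes (20 or more counts in all libraries) were 132.6 and 132.4 nt in wild type and 142.5 nt in pcf11-13. Without caffeine they were 142.8 and 141.2 nt in wild type and 142.5 nt in pcf11-13. The 2 wild-type caffeine libraries thus had shorter medians than every other library of these 2 strains, and the pcf11-13 caffeine library did not. Means weighted by counts gave another picture, with 151.2 and 162.7 nt in wild type and 171.5 nt in pcf11-13 in caffeine. Without caffeine they were 163.1 and 164.2 nt in wild type and 169.8 nt in pcf11-13, so pcf11-13 had the longest mean in both media. Gene by gene, 3823 of 5165 genes (74.0%) were longer in pcf11-13 than the wild-type mean in caffeine, with a median difference of 5.62 nt. The median was 5.76 nt against experiment 1 and 5.77 nt against experiment 2, and -0.46 nt between the wild-type libraries. Without caffeine 52.6% of genes were longer and the median difference was 0.45 nt.

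No single gene passed. In limma's moderated test 0 of 5165 genes (0%) had an adjusted p under 0.05, the smallest was 0.090, and 1144 genes had an unadjusted p under 0.05. The pcf11-13 value lay above both wild-type libraries in 3478 genes (67.3%) and below both in 958 (18.5%). It was beyond both by at least 50 nt in 299 genes that were longer and 92 that were shorter, and by at least 100 nt in 98 and 30. Between the wild-type libraries themselves a difference of at least 50 nt was found for 117 genes longer in experiment 2 and 59 shorter. Among the 2820 genes that reached 200 counts in each of the 3 caffeine libraries compared, 77.8% were longer, with a median of 5.44 nt.

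**Figure D4:**
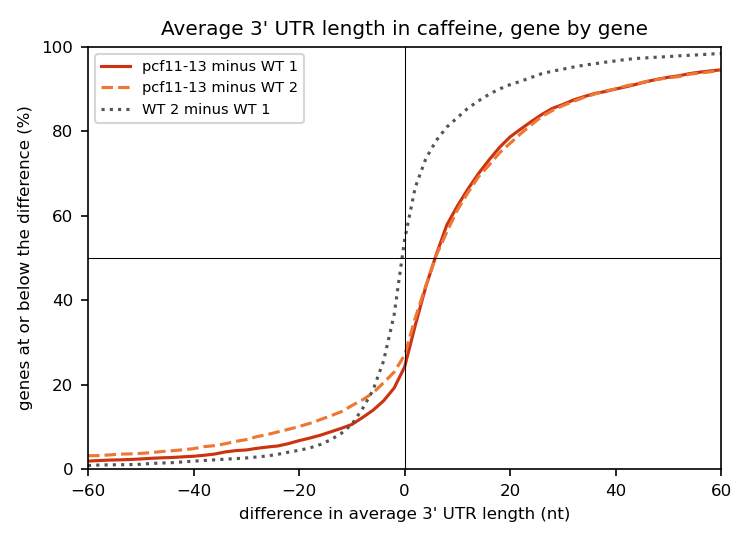
Cumulative share of 5165 genes (vertical axis, percent) by difference in average 3′ UTR length (horizontal axis, nt) for pcf11-13 against each wild-type caffeine library and for the wild-type libraries against each other. Both pcf11-13 curves cross 50% near 5.8 nt and the wild-type curve crosses it near -0.46 nt.

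The length difference was also described by class of gene. Genes were split into quartiles of wild-type length without caffeine, which does not enter the difference, a split chosen after the data were seen. The share of longer genes was 82.8%, 76.8%, 73.6% and 62.9% from the shortest to the longest quartile, and the medians were 4.55, 6.51, 7.04 and 5.07 nt, which follow no such order. Genes whose downstream neighbour lay in tandem had a median of 4.54 nt (78.3% of 2325 longer), and genes with a convergent neighbour had 7.21 nt (70.3% of 2807 longer). The hexamer TATATA, a form of the efficiency element to which Hrp1 binds, was found on the coding strand in the 300 bases after the stop codon of 58.3% of 5143 genes. Genes with it had a median of 6.58 nt and the others 4.53 nt. For AATAAA, a form of the positioning element, which 40.3% of the genes held, the medians were 5.46 and 5.71 nt. These are descriptions with no test.

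No gene passed, so the 4 longer and 4 shorter genes with the smallest p were taken. They had at least 100 counts in each of the 3 libraries and a pcf11-13 value beyond both wild-type libraries. CMG1 (YLR271W, chromosome XII, 682737 to 683561, plus strand) had an average length of 202 and 202 nt in wild type and 354 nt in pcf11-13, a difference of 152 ± 5.62 nt (SE; limma adjusted p = 0.09). IRC25 (YLR021W, chromosome XII, 183623 to 184162, plus strand), a proteasome assembly chaperone, had 126 and 116 nt in wild type and 327 nt in pcf11-13, and its stop codon lies 11 nt from the convergent gene SDO1. TRR2, the mitochondrial thioredoxin reductase, had 149.6 and 143 nt in wild type and 248 nt in pcf11-13, and AAD15, a member of the aryl-alcohol dehydrogenase family, had 271 and 276 nt in wild type and 366 nt in pcf11-13. AAD15 lies near a chromosome end and belongs to a family with similar copies. In these 4 genes the wild-type libraries lay close together and the pcf11-13 library lay well above both, a pattern that the choice favoured.

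HMRA1 had 861 and 843 nt in wild type and 72.3 nt in pcf11-13, and 740.2 and 666 nt in wild type and 60.7 nt in pcf11-13 without caffeine, so its shorter value went with the strain in both media. ASR1, a ubiquitin ligase, had 585 and 601 nt in wild type and 385 nt in pcf11-13, and ATP17, a subunit of ATP synthase, had 318 and 317 nt in wild type and 279 nt in pcf11-13. NFT1, an ABC transporter, had 95.7 and 92.6 nt in wild type and 38.1 nt in pcf11-13, but truncated reads made up 96.9% and 97.4% in wild type and 98% in pcf11-13 of its counts, so this length rests on few reads. The lower genes PTC2 and AIM4 also had longer values, but on only 62.4 and 28 counts, respectively, in pcf11-13 in caffeine. Both fell below the count minimum set for the longer and shorter genes above. In caffeine the lengths were 96.8 and 87 nt in wild type and 278 nt in pcf11-13 for PTC2. For AIM4 they were 173 and 164 nt in wild type and 358 nt in pcf11-13. Without caffeine the values were 170.1 and 142 nt in wild type and 243 nt in pcf11-13 for PTC2 and 234 and 192 nt in wild type and 277 nt in pcf11-13 for AIM4. Of the 25 genes called lower, 23 had 20 or more counts in every library, and 20 of these were longer in pcf11-13. Among the genes called higher, 38 had such counts and 21 of these were longer, beside 74.0% of all genes.

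**Figure D5:**
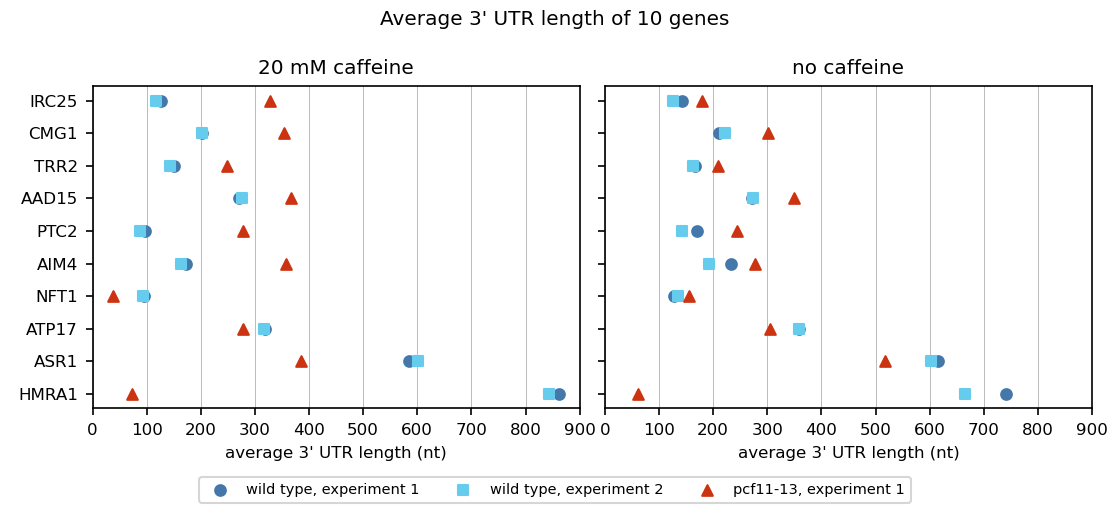
Average 3′ UTR length (nt) of 10 genes in the 3 libraries of each medium, 1 point per library. In caffeine the pcf11-13 point lies at 278 nt for PTC2 (62.4 counts) and at 358 nt for AIM4 (28 counts), above both wild-type points. For HMRA1 it lies at 72.3 nt, below both.

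The element nearest before each average end was looked up for these 10 genes in the last 100 bases, in the reference sequence, as TATATA or, failing that, AATAAA on the coding strand. Windows before the average end of all 5143 genes held either hexamer for 55.3% of wild-type ends and 52.9% of pcf11-13 ends. An average end is a mean over reads and need not be a cleavage site. The stretches of the genes with a match are shown 5′ to 3′ on the coding strand (RefSeq, assembly R64), with the hexamer in capitals.
CMG1, pcf11-13, chrXII:683886-683915, plus strand: ctctccttacccAATAAAtcatctgacgat
TRR2, wild type, chrVIII:326712-326741, plus strand: ataagatacataTATATAtgtgcgtattgc
AAD15, wild type, chrXV:1413-1442, minus strand: cgcataaatatgTATATAtgcacatgaggt
PTC2, wild type, chrV:335895-335924, minus strand: tatatacataccTATATAcgaaccgaacga
ATP17, wild type, chrIV:1229216-1229245, plus strand: cacacacacataTATATAtatatgtatata
ATP17, pcf11-13, chrIV:1229151-1229180, plus strand: taaactttacaaTATATAttcataaaaatt
Within the 100 bases, CMG1 held a match before the pcf11-13 end alone, and TRR2, AAD15 and PTC2 before the wild-type end alone. The matches of TRR2, AAD15 and PTC2 also lie upstream of the pcf11-13 end, but further than 100 bases from it. In ATP17 a match lay before each end. No match was found before either end of IRC25, HMRA1, ASR1, NFT1 and AIM4, which says only that these letters are not in those windows.

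Ends inside genes were measured by the truncated share of a gene's counts. Over all counts it was 10.1% and 8.42% in wild type and 9.55% in pcf11-13. In limma's test 0 of 5167 genes (0%) passed, with a smallest adjusted p of 0.14 and 497 genes at an unadjusted p under 0.05, and edgeR on rebuilt class counts called 4. The pcf11-13 share lay above both wild-type libraries in 42.5% of genes and below both in 33.5%. Among the genes called higher in expression it lay below both in 25 of 38 (65.8%), and among those called lower it lay above both in 19 of 23 (82.6%). Expression and share come from the same libraries and counts.

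CBP1, whose shorter transcript is known to end within its coding sequence, had truncated shares of 60.1% and 47% in wild type and 12.6% in pcf11-13 (95% Wilson interval for pcf11-13, 10.8% to 14.7%) and was higher in total counts. Without caffeine its shares were 33.3% and 22.7% in wild type and 42.8% in pcf11-13, so pcf11-13 was the highest library there and the lowest in caffeine. The limma adjusted p in caffeine was 0.42. PGK1, the glycolytic phosphoglycerate kinase, had 2.48% and 2.41% in wild type and 35.5% in pcf11-13 (30.6% to 40.9%), while its expression in CPM stood at 889 and 245 in wild type and 145 in pcf11-13. SRP72, a subunit of the signal recognition particle, had 29.7% and 30.4% in wild type and 53.7% in pcf11-13, and LYS21, a homocitrate synthase of lysine synthesis, had 2.52% and 2.04% in wild type and 20.1% in pcf11-13. In DRN1, a splicing-associated factor, the shares were 4.92% and 4.21% in wild type and 26.1% in pcf11-13. These 4 genes showed the smallest p among the higher shares, with limma adjusted p-values of 0.14 to 0.15. Only genes with at least 100 counts in each of the 3 libraries and pcf11-13 beyond both wild-type libraries were considered.

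Among genes that met the same conditions, the lower shares with the smallest p were those of DPC25, YTA6, FAT1 and WAR1. DPC25 had 28.3% and 29.4% in wild type and 4.71% in pcf11-13, and YTA6, an ATPase of the AAA family, had 53.3% and 54.6% in wild type and 30.8% in pcf11-13. FAT1, a fatty acid transporter and acyl-CoA synthetase, had 57.1% and 59.7% in wild type and 22.3% in pcf11-13, and WAR1, the transcription factor of weak acid resistance, had 56.8% and 57.3% in wild type and 43.3% in pcf11-13. The 2 wild-type libraries lay close together in each of them, a pattern that the choice by smallest p favoured. Among the cleavage factors, HRP1, the RNA-binding factor of cleavage factor IB, had 81.3% and 77.1% in wild type and 45.6% in pcf11-13 (limma adjusted p = 0.37), and RNA14 of cleavage factor IA had 85.3% and 72.9% in wild type and 64.6% in pcf11-13 (limma adjusted p = 0.74). PTI1 of APT had 15.1% and 16.4% in wild type and 42.1% in pcf11-13 on 105 counts in pcf11-13 (limma adjusted p = 0.21).

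A further deposited fraction, ProPrx in the headers and the proximal share here, covers a region whose bounds neither the labels nor the headers give. It was called for 65 of 5167 genes in limma (1.26%), 59 higher (1.14%) and 6 lower (0.116%), with 758 at an unadjusted p under 0.05. With the experiment as a replicate block 0 passed (574 at an unadjusted p under 0.05), as also in edgeR on rebuilt class counts, in the caffeine libraries alone and without any 1 of the 4 wild-type libraries. PGK1 had 2.48% and 1.77% in wild type and 35.4% in pcf11-13 and LYS21 1.66% and 1.43% in wild type and 19.8% in pcf11-13. DRN1 had 3.19% and 2.51% in wild type and 23.2% in pcf11-13, so in these 3 genes the proximal share of pcf11-13 was close to its truncated share. MRPL17, a mitochondrial ribosomal protein gene, had 0.167% and 1.21% in wild type and 21.9% in pcf11-13, and it lies 301 nt downstream of NRD1 on the same strand. The part of NRD1 reads in that share was not tested. RIX1, of large-subunit assembly, had 2.35% and 1.82% in wild type and 18.4% in pcf11-13, and DYN3, a dynein light intermediate chain, had 4.59% and 4.4% in wild type and 16.8% in pcf11-13.

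Lower proximal shares were called for DPC25, at 27.7% and 28.6% in wild type and 4.32% in pcf11-13, and for YCL068C, at 98.9% and 99% in wild type and 89.4% in pcf11-13. GNP1, a glutamine permease, had 6.08% and 6% in wild type and 0.376% in pcf11-13, PBI1 had 5.59% and 5.66% in wild type and 1.18% in pcf11-13, and DPH2, of diphthamide synthesis, had 3.68% and 3.65% in wild type and 1.03% in pcf11-13. MF(ALPHA)1 had 0.507% and 0.175% in wild type and 19.3% in pcf11-13, on 33 counts in pcf11-13, and was called higher. Limma gave these 12 genes adjusted p-values from 0.029 to 0.048. For each of them the limma adjusted p was 0.34 with the block. The calls went with a small residual spread, which came from 2 degrees of freedom.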

How the data were processed

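Direct RNA sequencing of poly(A) 3′ ends had been run on 8 yeast libraries, of which 3 make up the comparison and 8 enter the fit. Per the file headers, the authors deposited estimated counts per gene without normalization, an average 3′ UTR length per gene, and each gene's truncated and proximal reads as a fraction. Coordinates follow sacCer3, the build in the submitters' processing notes. No source used here names an aligner, a counting rule or the use of strand, so overlapping and antisense genes are uncertain. Of 5933 identifiers, 5919 matched RefSeq R64. Length values listed at -1 (40 values in 5 genes) were treated as missing.

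Rounded counts entered edgeR 4.0.16 (R 4.3.3; TMM, filterByExpr, quasi-likelihood test, Benjamini-Hochberg adjustment, threshold 0.05) as 6 group means over 8 libraries, with 2 residual degrees of freedom. Lengths and fractions were tested with limma 3.58.1 on the same design where each library had 20 or more counts. DESeq2 1.42.0 was an alternative, and the models were tested on simulated data. Single-library log2 values used a prior count of 2. Total counts ran from 1070278 to 4555751 per library, and intervals cover counting error only. The experiment number in the labels was taken as a pairing only in the alternative fit with the block, and the main fits held no such term. Deviations of the 2 wild-type replicates correlated between media across genes, at 0.19 for expression and 0.29 to 0.31 for the poly(A) measures. Alternatives were scaling, filters, left-out libraries, the block, transformations and the caffeine libraries alone.

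The comparison, the 35 gene lists and the tests were chosen with earlier results of these data known. Named genes are the mating and termination lists, PCF11 and up to 4 per gene list. For expression, up to 10 called genes per direction with the largest difference were added (mean of at least 50 counts, beyond both controls, outside the mating lists). For the poly(A) measures, up to 6 per direction were added (at least 100 counts per library compared, beyond both controls, topped up to 4 by smallest p). Remaining called genes, and values of 2 media for a few genes, were given after their values were seen.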

Additional observations from a re-analysis of the deposited data

Results flagged for a closer look

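For the proximal share of DPH2, limma's test called the strain difference as unlike between the media, on few reads and a small residual spread. The difference in caffeine minus the difference without was -0.129 as a fraction (limma adjusted p = 0.011). The share was 3.68% and 3.65% in wild type and 1.03% in pcf11-13 with caffeine, and 0.013% and 0.0056% in wild type and 10.3% in pcf11-13 without it. The untreated wild-type libraries held 46.3 and 108.5 counts of the gene.

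In 7 genes called in caffeine, every pcf11-13 and wild-type difference had the opposite direction without caffeine. The log2 difference in caffeine minus that without was 3.00 for NRD1, 2.73 for YBL008W-A and 2.45 for PUS4, a tRNA pseudouridine synthase. It was -2.83 for SWF1, -2.23 for YOR376W-A, -2.13 for GCG1, a glutathione-degrading enzyme, and -1.82 for PRM8. In edgeR's test of that difference none of the 7 passed, with a smallest adjusted p over all genes of 0.14. These genes were picked from the 77 called ones because of their opposite signs.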

How the results depend on the processing

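Across the alternatives run, 0 of the single-gene values reversed. Of 1843 alternative values of single genes and medians 138 fell below the threshold, 44 passed it and 15 moved. The count of higher genes was 16 with at least 50 counts in every library, 31 in the caffeine libraries alone and 52 to 164 without 1 wild-type library. For lower genes the corresponding values were 5, 12 and 27 to 129, and DESeq2 gave 48. With the replicate block, 59 genes were higher and 36 lower, with 61 of the 77 genes kept, and DESeq2 kept 62. The interaction count was 42 in DESeq2, 0 with the block and 0 to 177 without 1 wild-type library. For length, 0 genes passed under every alternative, and the median difference ran from 5.42 nt in the caffeine libraries alone to 5.87 nt with the block. The truncated count was 1 with a trend in eBayes and 4 in edgeR on class counts. For the proximal share the count was 7 with a trend, 123 after the arcsine square root, and 0 in the caffeine libraries alone, with the replicate block, on class counts and without any 1 wild-type library (range 0 to 0). The causes were not tested. Leaving out a wild-type library leaves 1 residual degree of freedom and a lone control assumed to vary like the rest. The pcf11-13 library is less deep than its controls and has no replicate.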
